A study of Mus musculus with 69 samples.

Results

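The response to IL-15 that remains when CD8+ T cells carry a single Stat5b allele and no Stat5a was examined in 12 RNA-seq libraries of AAB mice (Stat5a-/- Stat5b+/-), out of 69 samples in the series. The members were chosen by label alone, as every AAB CD8+ library made without cytokine (6 libraries) or with IL-15 (6 libraries). By the labels IL-15 was given for 12 to 16 h. They fall into 3 cell states sorted from pooled lymph nodes and spleen, with 2 libraries in each state and culture: naive cells (Tnv; CD44 low, CD62L high), central memory cells (Tcm; CD44 high, CD62L high) and effector memory cells (Tem; CD44 high, CD62L low). All genes were examined, and 10409 of the 24309 gene symbols in the count table passed the filter on low counts. For comparison, 12 libraries of WT mice and 12 of BBA mice (Stat5a+/- Stat5b-/-), made in the same states and cultures, were used. The alleles are lost from the germline, so the cells of both mutants also developed with fewer Stat5 alleles. The labels describe every sample as cultured before lysis, whereas the study's methods describe cells without cytokine as taken directly after isolation. If the second account holds, IL-15 and time in culture cannot be told apart in any comparison of IL-15 with no cytokine.

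IL-15 is presented to CD8+ T cells by other cells and is read by a receptor that shares its signalling chains, IL-2Rβ and the common γ chain, with the IL-2 receptor. JAK1 and JAK3 on these chains phosphorylate STAT5A and STAT5B, 2 closely related transcription factors that bind as dimers to the palindrome TTCNNNGAA. In CD8+ T cells the cytokine is known for the upkeep of naive and memory cells through survival proteins such as BCL-2, for the slow division of memory cells, and for feedback inhibitors such as CIS and SOCS1 that limit the signal.

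Stat5a levels matched the labels in all 36 libraries. Stat5b levels set both mutants below WT but did not fully part BBA from AAB. Stat5a ran from 2.13 to 4.89 CPM (counts scaled to a common normalized library total) in AAB, from 68.8 to 109 CPM in WT and from 35.9 to 49.9 CPM in BBA, with no overlap between AAB and the others. Stat5b ran from 78.5 to 140.1 CPM in AAB, between 173 to 352 CPM in WT and 48.9 to 93.6 CPM in BBA, where the top of the BBA range overlapped the bottom of the AAB range. Stat5b differed little between AAB libraries without cytokine and with IL-15. It went in Tnv from 127 and 122 to 130.2 and 140.1 CPM. In Tcm it went from 86.6 and 99.7 to 95.6 and 92.97 CPM and in Tem from 78.5 and 87.1 to 95.3 and 106 CPM. The AAB libraries held 5926139 to 24818409 counts on genes (median 13345129). The summed level of 5 genes of the CD8 T cell lineage was 3129 to 4822 CPM in the AAB libraries, and without cytokine the naive markers summed to 3987 to 4159 CPM in Tnv, 3356 to 3361 CPM in Tcm and 2574 to 2599 CPM in Tem, so the sorted states carried their markers. Markers of other cells summed to less than the CD8 lineage genes. B cell genes summed to 94.3 to 432 CPM without cytokine and 70.98 to 276 CPM with IL-15. Their sum was higher in replicate 2 than in replicate 1 of each AAB group. In Tcm replicates 1 and 2 it was 181 and 432 CPM without cytokine and 102 and 276 CPM with IL-15. In the order without cytokine and with IL-15, myeloid genes summed to 44.1 to 223 CPM and 27.7 to 156 CPM. CD4 T cell genes summed to 33.3 to 82.05 CPM and 38.4 to 93.5 CPM. Gamma-delta T cell genes summed to 5.08 to 21.2 CPM and 3.15 to 13.3 CPM, and erythroid genes to no more than 5.25 CPM. In such bulk samples, fewer cells of a type and less RNA per cell cannot be told apart. The study's methods call the replicates biological and place RNA-seq groups over several mice and trials, but the labels tie no library to a mouse or a trial. Pairs of libraries of 1 group differed far beyond counting noise (chi-square of 10.9 to 29.6 per degree of freedom).

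In AAB cells, where a single Stat5b allele is present, many genes differed between libraries with IL-15 and without cytokine in each state. With state as covariate, 6 libraries with IL-15 against 6 without, 1089 of 10409 genes were called (10.5%), 677 higher (6.5%) and 412 lower (3.96%). A call is a Benjamini-Hochberg adjusted p under 0.05 in edgeR's quasi-likelihood test and a difference of more than 1.5-fold. Within states, 1485 genes were called in Tnv (14.3%; 830 higher, 7.97%, and 655 lower, 6.29%), 359 in Tcm (3.45%; 177 higher, 1.7%, and 182 lower, 1.75%) and 527 in Tem (5.06%; 256 higher, 2.46%, and 271 lower, 2.6%). All 12 libraries shared one estimate of spread. In fits that blocked on the replicate number, the counts were 1979 in Tnv, 862 in Tcm, 926 in Tem and 1186 with state as covariate. With filterByExpr, which keeps more genes of low count, 1874 were called with state as covariate. The counts in single states rested on each library: Tnv had 929 and 955 calls without replicate 1 or 2 of its libraries without cytokine. Tcm had 217 and 186 calls without replicate 1 or 2 of its libraries without cytokine, and 128 and 129 without replicate 1 or 2 of those with IL-15. Tem had 247 and 203 calls without replicate 1 or 2 of its libraries without cytokine, and 322 without replicate 2 of those with IL-15. Of the higher calls, 64 were made in all 3 states, which is 7.71% of those in Tnv, 36.2% of those in Tcm and 25% of those in Tem. Of the lower calls, 95 were made in all 3 states, or 14.5%, 52.2% and 35.1%.

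**Figure D1:**
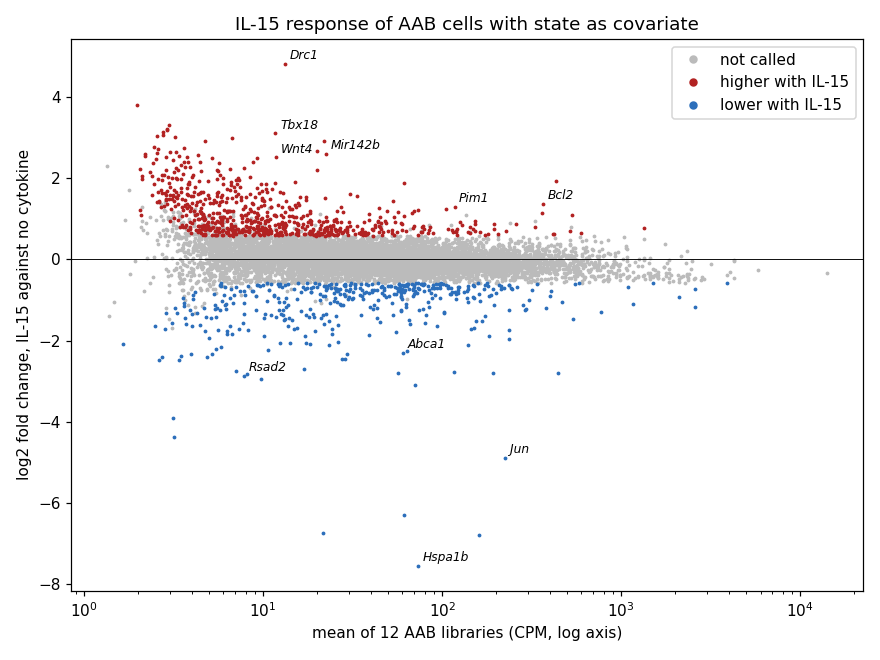
Each point is 1 of 10409 genes, with its mean over the 12 AAB libraries (CPM, log axis) across and its log2 fold change for IL-15 against no cytokine, state as covariate, upwards; red points were called higher and blue points lower. Drc1 stands at the top with 4.81 and Hspa1b at the bottom with -7.54, and many of the red points lie at the low end of the level axis.

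Survival genes were among the named rises that were shared by the 3 states. Bcl2, which encodes the anti-apoptotic protein BCL-2, stood in AAB Tnv at 264 and 187 CPM without cytokine and 504 and 541 CPM with IL-15. It stood in Tcm at 243 and 218 CPM without cytokine and 652 and 634 CPM with IL-15, and in Tem at 175 and 158 CPM without cytokine and 451 and 382 CPM with IL-15. The libraries with and without IL-15 did not overlap in any state, and the log2 fold change with state as covariate was 1.37 ± 0.09 (SE; adjusted p = 1.83e-06). Pim1, a serine/threonine kinase gene induced by STAT5, went in Tnv from 79.3 and 124 to 179 and 183 CPM, in Tcm from 44.2 and 71.7 to 145 and 148 CPM and in Tem from 46.03 and 59.97 to 158 and 170.3 CPM, again without overlap, with a log2 fold change of 1.29 ± 0.16 (SE; adjusted p = 0.000152). Its relative Pim2 rose, with a log2 fold change of 0.87 ± 0.10 (SE; adjusted p = 7.48e-05), whereas Pim3 fell, with a log2 fold change of -0.80 ± 0.10 (SE; adjusted p = 0.000131). Bcl2l1, which encodes the anti-apoptotic protein BCL-XL, was called most clearly in Tcm, where it went from 28.98 and 28.1 to 65.2 and 82.6 CPM, a log2 fold change of 1.40 ± 0.16 (SE; adjusted p = 0.00152). Of the 11 members of the BCL-2 family that passed the filter, 2 were called higher with state as covariate (Bcl2 and Bcl2l1) and 0 lower. Of all tested genes 6.5% were higher and 3.96% lower. The pro-apoptotic Bbc3 (PUMA) fell in Tcm from 75.96 and 85.95 to 28.9 and 28.2 CPM (log2 fold change -1.47 ± 0.13, adjusted p = 0.000596). No fall of Bbc3 was called in Tnv or Tem.

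Known STAT5 targets, taken as a list, were called higher more often than lower. The list includes Bcl2, Bcl2l1, Pim1, Pim2 and Pim3, whose calls are given above. Of 27 tested genes of a list of feedback and survival targets, 8 were called higher and 3 lower with state as covariate. Of all tested genes 6.5% were higher and 3.96% lower. The list had a median log2 fold change of 0.09 against 0.00243 over all tested genes. Within states, 9 were higher and 7 lower in Tnv, against 7.97% and 6.29% of all tested genes. In Tcm 7 were higher and 1 lower, against 1.7% and 1.75%. In Tem 4 were higher and 2 lower, against 2.46% and 2.6%, and the fit with the replicate block called 8 higher. Il2ra, the α chain of the high-affinity IL-2 receptor, rose in Tnv from 1.95 and 2.46 to 12.6 and 8.71 CPM (log2 fold change 2.30 ± 0.33, adjusted p = 0.00128). It stood in Tcm at 3.25 and 2.92 CPM without cytokine and 2.60 and 4.40 CPM with IL-15, with overlap. In Tem, on a scale over 48 libraries, it was at 6.01 and 6.61 CPM without cytokine and 13.3 and 13 CPM with IL-15. These did not overlap, but no rise was called. Bhlhe40, a transcriptional repressor gene, rose in Tcm from 10.3 and 11.6 to 25.3 and 34.02 CPM (log2 fold change 1.47 ± 0.19, adjusted p = 0.00273), a call that was lost in the fit of all 36 libraries (1.44 with an adjusted p of 0.0689). Falls among these targets were made by Dusp6, a phosphatase gene for ERK, with -1.43 ± 0.24 (SE; adjusted p = 0.000896) over the 3 states, by the chemokine gene Xcl1 with -1.16 ± 0.28 (SE; adjusted p = 0.00728), and in Tnv by the cytokine genes Osm (from 22.3 and 21.3 to 10.5 and 11.3 CPM; log2 fold change -0.96 ± 0.18, adjusted p = 0.00495) and Lta (from 19.1 and 16.2 to 8.75 and 8.36 CPM; log2 fold change -1.01 ± 0.15, adjusted p = 0.00149). The call of Xcl1 was lost in the fit of all 36 libraries (-0.89 with an adjusted p of 0.0835). Myc, the growth regulator, was lower in Tnv with IL-15, from 134 and 176 to 75.3 and 103 CPM, with a log2 fold change of -0.76 ± 0.22 (SE; adjusted p = 0.0339). That call was lost in the fit of all 36 libraries (-0.80 with an adjusted p of 0.0625), without replicate 2 of the Tnv libraries without cytokine (-0.51 with an adjusted p of 0.247) and without replicate 1 of those with IL-15 (-0.54 with an adjusted p of 0.207).

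The feedback inhibitor genes Cish and Socs1 responded by state. Socs2, a SOCS family gene at low level, was higher with IL-15 in each state, and no test of it is given here. In CPM of a scale over 48 libraries, it went in Tnv from 0.348 and 0.867 to 2.36 and 3.21. It went in Tcm from 0.824 and 0.397 to 3.21 and 3.16 and in Tem from 0.883 and 0.965 to 1.63 and 3.9. Cish, which encodes CIS, a SOCS family protein that blocks STAT5 at the receptor, was at 9.95 and 9.50 CPM without cytokine and 7.001 and 13.01 CPM with IL-15 in Tnv, where the libraries overlapped and the log2 fold change was 0.08 ± 0.24 (SE; adjusted p = 0.845). In Tcm it rose from 6.01 and 6.80 to 25.5 and 24.6 CPM (log2 fold change 2.0 ± 0.23, adjusted p = 0.00152) and in Tem from 9.98 and 9.37 to 33.6 and 33.99 CPM (log2 fold change 1.82 ± 0.24, adjusted p = 0.0032). Socs1, the inhibitor of JAK kinases, stood in Tnv at 85.5 and 98.6 CPM without cytokine and 62.7 and 65.8 CPM with IL-15, a log2 fold change of -0.49 ± 0.11 (SE; adjusted p = 0.0105) that is within the 1.5-fold limit. It rose in Tcm from 68.7 and 65.9 to 146 and 139.7 CPM (log2 fold change 1.12 ± 0.11, adjusted p = 0.000852), and the difference between the Tcm and Tnv responses of Socs1 was itself called (1.60 ± 0.15, adjusted p = 0.00229).

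Cish carries 2 copies of the STAT5 palindrome at its transcription start in the RefSeq promoter sequence (GRCm38.p6), shown here because Cish is a feedback gene that was called higher in AAB Tcm and Tem. Lta, which also carries 2 copies but was called in AAB only as a fall in Tnv, is shown beside it. Capitals mark matches to TTCNNNGAA, a motif that reads the same on both strands. The windows are chr9:107296649-107296677 and chr9:107296660-107296688 for Cish (plus strand, motifs starting at bases 1 and 12 from the start site) and chr17:35205485-35205513 and chr17:35205349-35205377 for Lta (minus strand, motifs starting at -152 and -16).
Cish first motif: ccgcccagttTTCCTGGAAagttcttgga
Cish second motif: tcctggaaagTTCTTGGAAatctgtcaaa
Lta distal motif: accatcactcTTCAGGGAAccaggcttcc
Lta proximal motif: ccgactccctTTCCCAGAAcgcagtagtc

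The motif was counted in all promoters. Promoters were taken as 250 bases before to 50 bases after the start site, and 7985 of the 10409 tested genes had an entry. The motif stood in 8.58% of these, in 9.55% of all 27025 promoters, in 9.41% of the genes called higher with state as covariate and in 11.5% of those called lower. Of the 28 STAT5 targets, 21 had an entry and 5 held a match (Cish, Socs3, Lta, Gzmb and Tnfrsf9), while Bcl2, Pim1, Pim2, Bcl2l1, Socs1, Il2ra and Drc1 held none, which says only that these letters are not in this window.

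**Figure D2:**
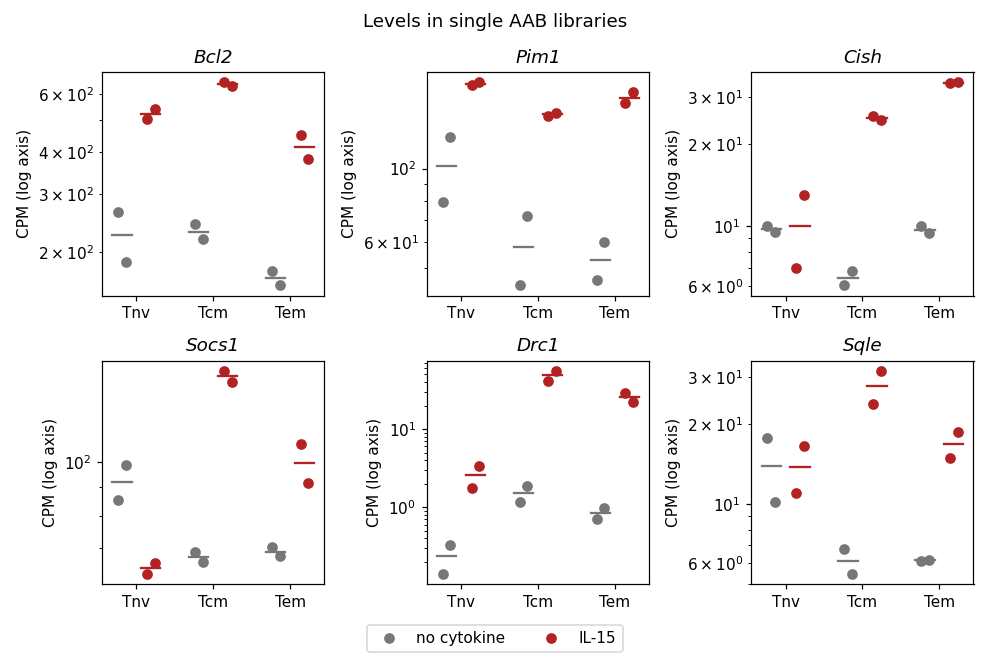
Levels of 6 genes in the 12 AAB libraries (CPM, log axis), by cell state; each point is 1 library, grey without cytokine and red with IL-15, and bars are means of 2. Bcl2 and Pim1 are higher with IL-15 in every state, Cish and Sqle in Tcm and Tem but not in Tnv, Socs1 moves down in Tnv and up in Tcm, and Drc1 climbs from 1.18 and 1.86 to 41.4 and 55.6 CPM in Tcm.

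Drc1, which encodes a subunit of the dynein regulatory complex of cilia and flagella, had the largest log2 fold change of all genes called higher in Tcm, in Tem and with state as covariate. It stood in Tcm at 1.18 and 1.86 CPM without cytokine and 41.4 and 55.6 CPM with IL-15 and in Tem at 0.707 and 0.979 CPM without cytokine and 29.2 and 21.9 CPM with IL-15. In Tnv it was near the detection limit without cytokine (0.139 and 0.332 CPM) and reached 1.75 and 3.36 CPM with IL-15. The log2 fold change was 5.02 ± 0.35 (SE; adjusted p = 0.000133) in Tcm, 4.97 ± 0.41 (SE; adjusted p = 0.000305) in Tem and 4.81 ± 0.27 (SE; adjusted p = 6.54e-07) over the 3 states. WT cells held more Drc1 without cytokine, at 16.6 and 8.74 CPM in Tcm, and reached 81.3 and 61.5 CPM with IL-15. In BBA Tcm it went from 0.455 and 0.126 to 2.57 and 2.79 CPM. In Tem with IL-15 it was at 40.2 and 20.7 CPM in WT and 0.41 and 1.85 CPM in BBA.

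Receptors and kinases of the pathway were called lower more often than higher. Of 24 genes of the common γ chain receptors, their relatives, JAKs and STATs, 2 were higher (Il2ra and Il10ra) and 5 lower in Tnv, where 7.97% and 6.29% of all tested genes were. None were higher in Tcm and Tem, where 1 and 3 were lower, against 1.75% and 2.6% of all tested genes. Il2rb, the signalling chain that binds IL-15, was at 925 and 1009 CPM without cytokine and 941 and 1021 CPM with IL-15 in Tcm and had a log2 fold change of 0.08 ± 0.10 (SE; adjusted p = 0.578) over the 3 states, which was not called. Il21r, the IL-21 receptor, fell in Tnv from 229 and 218 to 103 and 108 CPM (log2 fold change -1.04 ± 0.08, adjusted p = 6.09e-05) and in Tem from 250.3 and 254 to 144 and 143 CPM (log2 fold change -0.80 ± 0.08, adjusted p = 0.00059). Il12rb1, a chain of the IL-12 receptor, fell in Tnv from 26.7 and 22.2 to 5.43 and 5.17 CPM (log2 fold change -2.17 ± 0.15, adjusted p = 5.69e-05) and was at 32.2 and 27.7 CPM without cytokine and 32.6 and 39.8 CPM with IL-15 in Tcm. Tnfrsf18, which encodes the costimulatory receptor GITR, rose in Tnv from 46.5 and 36.5 to 62.5 and 77.8 CPM, in Tcm from 36.3 and 30.2 to 70.95 and 71.3 CPM and in Tem from 46.9 and 34.2 to 76.3 and 64.9 CPM. Tnfrsf18 had a log2 fold change of 0.91 ± 0.11 (SE; adjusted p = 0.000107) over the 3 states.

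Genes of sterol synthesis rose in Tcm, and some in Tem. Of 30 tested genes of cholesterol and fatty acid synthesis, 17 were called higher and 0 lower in Tcm, where 1.7% of all tested genes were higher. In Tem 7 were higher and 1 lower (Scd2), beside 2.46% and 2.6% of all tested genes. In Tnv 1 was higher (Elovl6) and 3 lower (Scd2, Fasn and Acaca), beside 7.97% and 6.29%. The list median was 0.10 in Tnv, 0.76 in Tcm and 0.43 in Tem on the log2 scale. Sqle, squalene epoxidase, rose in Tcm from 6.74 and 5.43 to 23.8 and 31.7 CPM (log2 fold change 2.22 ± 0.29, adjusted p = 0.003), and Idi1, isopentenyl diphosphate isomerase, from 17.4 and 14.5 to 60.1 and 63.6 CPM (log2 fold change 1.99 ± 0.21, adjusted p = 0.000973). Fdps, farnesyl diphosphate synthase, rose in Tcm (log2 fold change 1.12 ± 0.13, adjusted p = 0.00177) and in Tem (log2 fold change 0.96 ± 0.14, adjusted p = 0.00563). Insig1, the sterol sensor gene, also rose in Tcm (log2 fold change 1.11 ± 0.12, adjusted p = 0.00112) and in Tem (log2 fold change 0.88 ± 0.13, adjusted p = 0.00491). Fitted with only the 4 AAB libraries of Tem, the Tem calls of both were lost, at 0.95 with an adjusted p of 0.0758 for Fdps and 0.88 with an adjusted p of 0.0725 for Insig1. Abca1, which exports cholesterol from cells, moved the other way, in Tnv from 108 and 86.3 to 26.5 and 22.6 CPM, in Tcm from 74.7 and 66.5 to 8.89 and 9.15 CPM and in Tem from 136 and 125 to 22.6 and 39.7 CPM. Abca1 had a log2 fold change of -2.30 ± 0.17 (SE; adjusted p = 7.19e-06).

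**Figure D3:**
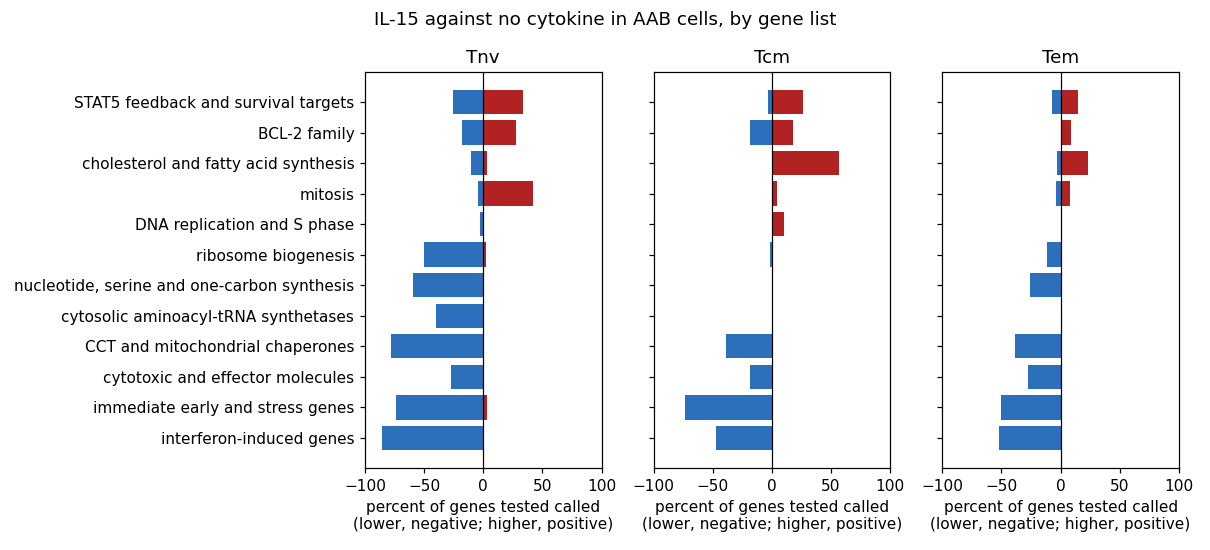
Share of the tested genes of each list that was called higher (red, to the right) or lower (blue, to the left) with IL-15 in AAB Tnv, Tcm and Tem, in percent of the genes tested in the list. Sterol genes stand out to the right in Tcm, ribosome biogenesis and one-carbon genes to the left in Tnv, and interferon-induced and immediate early genes to the left in each state.

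Genes of growth and biosynthesis fell in AAB Tnv, and smaller numbers of them were called in Tcm and Tem. Of 52 tested genes of ribosome biogenesis, 26 fell and 1 rose (Nip7) in Tnv, where 6.29% of all tested genes fell. In Tcm 1 fell (Polr1c) and in Tem 6, where 1.75% and 2.6% of all tested genes fell. Rrp12, needed for export of ribosomal subunits, was at 82.8 and 83.01 CPM without cytokine and 24.9 and 28.3 CPM with IL-15 in Tnv (log2 fold change -1.60 ± 0.12, adjusted p = 7.32e-05) and at 74.5 and 90.1 CPM without cytokine and 62.95 and 76.1 CPM with IL-15 in Tcm, and the difference between the Tcm and Tnv responses was called (1.39 ± 0.17, adjusted p = 0.00628). Nolc1, a nucleolar phosphoprotein gene, fell in Tnv from 139 and 128 to 65.2 and 60.4 CPM (log2 fold change -1.05 ± 0.10, adjusted p = 0.000222). Of 27 genes of nucleotide, serine and one-carbon synthesis, 16 fell in Tnv, 0 in Tcm and 7 in Tem, and none rose in the 3 states. Mthfd2, the mitochondrial folate enzyme, fell in Tnv from 38.98 and 36.9 to 15.4 and 14.4 CPM (log2 fold change -1.31 ± 0.10, adjusted p = 7.32e-05), and Srm, spermidine synthase, fell in Tnv from 70.3 and 73.2 to 19.6 and 23.96 CPM (log2 fold change -1.69 ± 0.12, adjusted p = 5.69e-05) and in Tem (log2 fold change -1.13 ± 0.12, adjusted p = 0.000998). Of 20 cytosolic aminoacyl-tRNA synthetases, 8 fell in Tnv and 0 in Tcm and Tem. Slc7a5, the large neutral amino acid transporter, fell in Tnv from 93.8 and 86.8 to 27.6 and 32.3 CPM (log2 fold change -1.55 ± 0.16, adjusted p = 0.000249), and 3 of 13 amino acid transporters fell there, with 2 higher.

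Other parts of the translation and energy machinery gave few calls, and in Tnv 6.29% of all tested genes fell. Of 61 genes of cytosolic ribosomal proteins, 3 fell in Tnv, 1 in Tcm and 1 in Tem, though all 61 had a negative log2 fold change in Tcm and Tem, with medians of -0.55 and -0.40. With the replicate block the count in Tcm was 20. Among translation factors 4 of 32 fell in Tnv, 0 in Tcm and 1 in Tem (Eif4a2). Glycolysis genes gave 2 falls in Tnv of 21 tested, and subunits of oxidative phosphorylation 2 of 42, with medians of -0.29 and -0.11 in Tnv. No gene of these 4 lists was called higher in any state.

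Cell cycle genes gave a mixed picture. Of all tested genes, 7.97% were called higher and 6.29% lower in Tnv. In Tcm these shares were 1.7% and 1.75%, and in Tem 2.46% and 2.6%. In Tnv, 10 of 24 tested genes of mitosis were higher and 1 lower (Kif23). Ube2c, the ubiquitin-conjugating enzyme of the anaphase-promoting complex, went from 2.30 and 2.66 to 17.4 and 13.8 CPM (log2 fold change 2.68 ± 0.22, adjusted p = 7.82e-05). Cdc25b, a phosphatase that activates CDK1, rose in Tnv from 57.9 and 64.4 to 211 and 199 CPM (log2 fold change 1.78 ± 0.24, adjusted p = 0.000867). In Tcm 1 gene of mitosis was higher (Ube2c), and in Tem 2 were higher (Cdc25b and Ube2c) and 1 lower (Kif23). Of 40 genes of DNA replication 4 were called higher in Tcm (Mcm7, Pole, Chaf1a and Chaf1b), 0 in Tnv and 0 in Tem, and with the replicate block 10 in Tcm, 4 in Tnv and 0 in Tem. In Tnv 1 was lower (Mcm2). Of 15 genes of D cyclins, G1 kinases and CDK inhibitors, 2 rose in Tnv (Ccne1 and E2f2) and 1 fell (Ccnd2), and 0 were called in Tcm and in Tem, where the block called 4 and 1. Ccnd2, a D cyclin gene, went in Tnv from 774 and 681 to 396 and 458 CPM (log2 fold change -0.73 ± 0.13, adjusted p = 0.00333).

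Immediate early genes and heat shock genes had the largest falls with state as covariate. Of 34 tested genes of a list of immediate early and stress genes, 25 fell in Tnv, 25 in Tcm and 17 in Tem. Of all tested genes 6.29%, 1.75% and 2.6% fell. The list medians were -1.79, -1.89 and -1.21 on the log2 scale. Hspa1b, an inducible HSP70 gene, went in Tnv from 149 and 181 to 1.93 and 0.776 CPM, in Tcm from 156 and 147 to 0.572 and 0.241 CPM and in Tem from 115 and 124 to 0.192 and 1.39 CPM. Hspa1b had a log2 fold change of -7.54 ± 0.26 (SE; adjusted p = 7.33e-09). Its near-identical neighbour Hspa1a fell with it (log2 fold change -6.74 ± 0.29, adjusted p = 6.69e-08), and reads of the pair are hard to assign. Jun, a subunit of the AP-1 transcription factor, went in Tnv from 505 and 799 to 12.1 and 19.6 CPM, in Tcm from 289 and 480.2 to 9.72 and 12.3 CPM and in Tem from 215 and 326 to 12.7 and 17.6 CPM. Jun had a log2 fold change of -4.88 ± 0.26 (SE; adjusted p = 4.6e-07). Fos, its partner, fell too, with a log2 fold change of -6.79 ± 0.42 (SE; adjusted p = 1.47e-06). The myeloid marker sums of these libraries were 44.1 and 198 CPM in Tnv, 62.5 and 223 CPM in Tcm and 56.1 and 199 CPM in Tem without cytokine and 33.1 and 97.6, 27.7 and 78.3 and 42.3 and 156 CPM with IL-15, and the part of such cells was not tested. Replicate 2 lay above replicate 1 for Jun without cytokine in each state, yet every library without cytokine was far above every library with IL-15. Of 18 chaperones of the CCT complex, the mitochondria and the cytosol, 14 fell in Tnv, 7 in Tcm and 7 in Tem, and all 18 had negative log2 fold changes in each state. Hspd1, the mitochondrial chaperonin HSP60, went in Tnv from 248 and 269 to 99.6 and 87.5 CPM, in Tcm from 275 and 292 to 159.6 and 156 CPM and in Tem from 252 and 272 to 128 and 105 CPM. Hspd1 had a log2 fold change of -1.13 ± 0.10 (SE; adjusted p = 1.47e-05). AAB libraries cultured with IL-7, which share the libraries without cytokine, held Hspa1b at 0.24 and 0 CPM in Tnv and 0.862 and 0.0646 CPM in Tcm and Jun at 28.1 and 25.1 and 15.2 and 19.5 CPM, beside Jun at 12 and 19.8 and 9.82 and 12.4 CPM with IL-15 on the same scale of 48 libraries. Jun and Hspa1b were low in both cytokine cultures. The part of time in culture, if cells without cytokine were not cultured, cannot be told apart from that of the cytokine.

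Interferon-induced genes fell in each state. Of 42 tested, 36 fell in Tnv, 20 in Tcm and 22 in Tem, where 6.29%, 1.75% and 2.6% of all tested genes fell. None rose, and the list medians were -1.62, -0.84 and -0.92. Rsad2, the antiviral enzyme viperin, went in Tnv from 8.004 and 6.71 to 1.14 and 1.98 CPM, in Tcm from 17.9 and 9.77 to 1.21 and 1.45 CPM and in Tem from 23.5 and 17.1 to 2.21 and 2.94 CPM. Rsad2 had a log2 fold change of -2.86 ± 0.25 (SE; adjusted p = 1.88e-05). Over the 3 states the log2 fold change was -1.89 ± 0.17 (SE; adjusted p = 1.9e-05) for Isg15, a ubiquitin-like protein gene, -2.82 ± 0.20 (SE; adjusted p = 3.78e-06) for Oasl2, an antiviral gene, and -2.10 ± 0.25 (SE; adjusted p = 0.000124) for Ly6a, which encodes the surface protein Sca-1. In all 4 genes the libraries with and without IL-15 did not overlap within a state. With IL-7, on the 48-library scale, Isg15 was at 11.6 and 6.14 CPM in Tnv and 3.02 and 5.81 CPM in Tcm.

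In the fits without the replicate block, calls in a list of cytotoxic and effector molecules were all falls with IL-15 in AAB cells. Of 22 tested, 0 rose in any state and 6 fell in Tnv, 4 in Tcm and 6 in Tem. Of all tested genes 7.97% rose in Tnv, 1.7% in Tcm and 2.46% in Tem, and 6.29%, 1.75% and 2.6% fell. In a list of this size, 0 rises is near those shares. With the replicate block 7 of the list fell in Tcm and 10 in Tem, with 1 higher in each. A sum of 10 effector state markers, which was not tested, rose without overlap. It went in Tnv from 224 and 184 to 313 and 362 CPM and in Tcm from 242 and 201 to 317 and 293 CPM. In Tem it went from 641 and 443 to 899 and 643 CPM. Prf1, which encodes perforin, fell in Tnv from 137 and 158 to 48.1 and 50.9 CPM (log2 fold change -1.54 ± 0.10, adjusted p = 3.55e-05) and in Tem from 218 and 219 to 119.9 and 111 CPM (log2 fold change -0.90 ± 0.09, adjusted p = 0.000998), and was at 234 and 232 CPM without cytokine and 206 and 199.9 CPM with IL-15 in Tcm. Gzma, granzyme A, fell in Tcm from 32.9 and 29.6 to 8.26 and 5.30 CPM (log2 fold change -2.17 ± 0.25, adjusted p = 0.00152). Over the 3 states the log2 fold change was -1.24 ± 0.16 (SE; adjusted p = 0.000178) for Serpinb6b, a serpin family gene, and -1.42 ± 0.37 (SE; adjusted p = 0.0114) for Tnf, the inflammatory cytokine gene. Of 8 tested NK receptor genes, Cd160 was called lower in each state, in Tnv from 8.14 and 8.51 to 2.45 and 2.33 CPM, in Tcm from 15.2 and 12.2 to 3.43 and 4.94 CPM and in Tem from 54.5 and 42.2 to 8.73 and 6.18 CPM. Cd160 had a log2 fold change of -2.06 ± 0.19 (SE; adjusted p = 2.02e-05) over the 3 states. In Tnv Nkg7 was called lower as well. Summed NK cell markers were 103 to 395 CPM without cytokine and 81.7 to 264 CPM with IL-15, and the part of a different share of such cells was not tested.

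Homing and checkpoint receptors changed in both directions. Cd69, which holds T cells in tissue, fell in Tnv from 97.2 and 118 to 14.7 and 12.1 CPM, in Tcm from 108 and 104 to 25.3 and 33.6 CPM and in Tem from 113 and 88.8 to 23.1 and 24.9 CPM. Cd69 had a log2 fold change of -2.26 ± 0.17 (SE; adjusted p = 7.88e-06). The chemokine receptors Cxcr4 (log2 fold change -1.51 ± 0.14, adjusted p = 1.98e-05) and Ccr9 (log2 fold change -1.38 ± 0.11, adjusted p = 1.14e-05) fell as well. Ccr7, the lymph node homing receptor, rose in Tnv from 525 and 499 to 786 and 992 CPM (log2 fold change 0.83 ± 0.11, adjusted p = 0.00102) and in Tcm from 377 and 350.5 to 614 and 644 CPM (log2 fold change 0.82 ± 0.11, adjusted p = 0.00401). S1pr1, the receptor for egress, rose in Tnv (log2 fold change 0.73 ± 0.09, adjusted p = 0.000668), and with no filter on low counts its log2 fold change of 0.57 with an adjusted p of 0.0149 fell within the 1.5-fold limit. Of 24 tested homing genes, 5 rose and 6 fell in Tnv, 3 and 3 in Tcm (6 rises with the block), and 1 and 5 in Tem (4 rises with the block). Of 18 inhibitory and costimulatory receptors, 7 rose in Tnv and 2 fell, against 1 and 2 in Tcm and 1 and 3 in Tem. For both lists, the shares of all tested genes that rose and fell were 7.97% and 6.29% in Tnv. They were 1.7% and 1.75% in Tcm and 2.46% and 2.6% in Tem. Lag3, an inhibitory receptor gene, went in Tnv from 3.97 and 3.72 to 13.04 and 40.3 CPM (log2 fold change 2.83 ± 0.46, adjusted p = 0.00249), and the libraries with IL-15 were far from each other. Cd274, which encodes PD-L1, fell in Tnv from 94.9 and 81.3 to 28.1 and 31.3 CPM (log2 fold change -1.53 ± 0.11, adjusted p = 5.69e-05).

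Regulators of cell fate were called in both directions. All tested genes were called higher and lower at 7.97% and 6.29% in Tnv. The shares were 1.7% and 1.75% in Tcm and 2.46% and 2.6% in Tem. Of 20 transcription factors of effector and memory cells, 4 rose and 3 fell in Tnv, 1 rose and 2 fell in Tcm and 1 rose in Tem. Tox, a factor of exhausted and memory cells, fell in Tnv from 57.6 and 50.2 to 24.7 and 20.9 CPM (log2 fold change -1.21 ± 0.14, adjusted p = 0.000421) and in Tcm from 57.1 and 52.2 to 24.01 and 26.8 CPM (log2 fold change -1.07 ± 0.13, adjusted p = 0.00215). Of 24 genes of naive state and quiescence, 5 rose and 4 fell in Tnv, 1 rose and 5 fell in Tcm, and 4 fell in Tem with none higher. Tsc22d3, the glucocorticoid-induced leucine zipper gene GILZ, fell in Tnv from 604 and 557 to 322 and 338 CPM, in Tcm from 360.4 and 324 to 121 and 122 CPM and in Tem from 296 and 234 to 104 and 79.9 CPM. Tsc22d3 had a log2 fold change of -1.25 ± 0.13 (SE; adjusted p = 3.87e-05). Dtx1, an E3 ligase gene of the Notch pathway, was among the largest falls, in Tnv from 395 and 581 to 63.3 and 83.8 CPM, in Tcm from 170.0 and 323 to 32.2 and 49.3 CPM and in Tem from 198 and 352 to 20.8 and 39.4 CPM. Dtx1 had a log2 fold change of -2.80 ± 0.24 (SE; adjusted p = 1.3e-05). Of 21 genes of the T cell receptor complex and its kinases, 0 rose, and Ptpn6, which encodes the phosphatase SHP-1, was the 1 that fell in all 3 states, in Tnv from 420.4 and 421 to 181 and 209 CPM, in Tcm from 381 and 481 to 170.2 and 216 CPM and in Tem from 356 and 392 to 190.5 and 231 CPM. Ptpn6 had a log2 fold change of -1.0 ± 0.09 (SE; adjusted p = 1.9e-05).

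A large share of the rises came from genes at low level. Of the 677 genes called higher with state as covariate, 289 (42.7%) were under 10 CPM in the higher of the means with and without IL-15, against 13.8% of all tested genes and 15% of the 412 called lower. Within states the share was 27.8% of the higher calls in Tnv, 10.7% in Tcm and 10.2% in Tem. With only genes at 10 CPM or more, an alternative chosen after seeing the data, 856 genes were called with state as covariate, 1316 in Tnv, 355 in Tcm and 502 in Tem. Tbx18, a T-box factor gene of mesenchyme, went in Tnv from 1.32 and 2.92 to 25.8 and 23.4 CPM, in Tcm from 2.31 and 1.86 to 9.02 and 10.2 CPM and in Tem from 2.83 and 1.96 to 17.6 and 41.2 CPM. Tbx18 had a log2 fold change of 3.10 ± 0.30 (SE; adjusted p = 3.25e-05). Wnt4, which encodes a secreted signal, went in Tnv from 2.23 and 3.59 to 28 and 25.2 CPM, in Tcm from 2.53 and 2.12 to 9.34 and 9.70 CPM and in Tem from 4.51 and 6.01 to 15.3 and 33.7 CPM. Wnt4 had a log2 fold change of 2.51 ± 0.25 (SE; adjusted p = 3.49e-05). Both libraries with IL-15 lay above both without it in each state for these genes. With IL-15, Tbx18 was at 5.16 and 7.51 CPM in WT Tnv and 38.96 and 48.7 CPM in BBA Tnv. In AAB cells with IL-7 it was at 0.6 and 0.227 CPM in Tnv and 2.16 and 0.968 CPM in Tcm on the 48-library scale. Vomeronasal receptor genes, a family silent in T cells, moved the same way in Tnv. Their summed level went there from 50.04 and 69.2 to 148 and 187 CPM. It overlapped in Tcm, at 43.8 and 125 CPM without cytokine and 68.7 and 119 CPM with IL-15. In Tem it overlapped too, at 90.65 and 178.5 CPM without cytokine and 59.95 and 268.4 CPM with IL-15. Among the Tem libraries with IL-15, replicate 2 was the higher for this sum, Tbx18 and Wnt4. Olfactory receptor genes summed in Tnv to 208.5 and 248.8 CPM without cytokine and 413.9 and 481.7 CPM with IL-15, and overlapped in Tcm and Tem. The part of such reads in the low-level calls was not tested. Mir142b, an entry that lies over the hairpin of Mir142, went in Tnv from 8.56 and 8.77 to 45.9 and 43.8 CPM, in Tcm from 5.11 and 5.88 to 35.1 and 30.8 CPM and in Tem from 5.04 and 5.73 to 35.3 and 39.4 CPM. Mir142b had a log2 fold change of 2.60 ± 0.09 (SE; adjusted p = 7.33e-09). Mir142 rose likewise (log2 fold change 2.68 ± 0.16, adjusted p = 9.23e-07). Both count poly(A)+ reads over the hairpin and are not levels of the mature miRNA, and the overlapping entries cannot be told apart unless strand was used.

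Whether the states responded differently was tested on the difference of their log2 fold changes. Between Tcm and Tnv 128 genes differed (1.23%), and 619 with the replicate block. The log2 fold change was higher in Tcm for 98 (0.941%) and lower for 30 (0.288%). Between Tem and Tnv 21 differed (0.202%; 302 with the block), 16 with a higher value in Tem (0.154%) and 5 with a lower one (0.048%). Between Tem and Tcm 0 of 10409 were called in edgeR, with 699 at an unadjusted p under 0.05, and 23 with the block and 21 in DESeq2. Leaving out 1 library brought the count between Tcm and Tnv down to 21 to 78 for 9 of the 12 libraries: 21 and 43 without replicate 1 or 2 of Tnv without cytokine, 40 without replicate 1 of Tnv with IL-15, 35 and 28 without replicate 1 or 2 of Tcm without cytokine, 56 and 25 without replicate 1 or 2 of Tcm with IL-15, and 78 and 77 without replicate 1 or 2 of Tem without cytokine. Between Tem and Tnv it was 0 to 7 without any 1 of the libraries. The calls of the next 4 genes held without any 1 library. Slc16a5, a monocarboxylate transporter gene, went in Tnv from 37.1 and 40.7 to 2.98 and 6.29 CPM and in Tcm from 63.9 and 68.7 to 61.9 and 59.9 CPM, a difference of 2.94 ± 0.30 (SE; adjusted p = 0.00286). Il12rb1 differed by 2.47 ± 0.20 (SE; adjusted p = 0.00229) and Prf1 by 1.38 ± 0.13 (SE; adjusted p = 0.00229), both with the fall in Tnv. Bbc3 differed the other way, by -1.96 ± 0.18 (SE; adjusted p = 0.00229). In all, 6 genes were called in opposite directions in 2 states (Cxcr6, Dap, Flt3l, Map3k8 and Tigit among them), of which Dap, Flt3l and Map3k8 are named here after their values were seen.

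Most AAB responses had the same direction in the other genotypes, whose libraries are separate. In one fit of all 36 libraries, the 830 genes called higher in AAB Tnv had a positive log2 fold change in WT for 798 and in BBA for 828, and the 655 called lower a negative one for 626 and 654. Of the 177 higher calls in Tcm 169 had the same sign in WT and 164 in BBA, and of the 256 in Tem 247 and 251. Fewer were also called there. Of the 830 in Tnv, 206 were called higher in WT and 640 in BBA. Of the 655 lower calls, 236 and 523 were called lower. The higher calls in Tcm gave 92 and 90, and those in Tem 65 and 196. In Tnv that fit called 729 of 11294 genes in WT, 1593 in AAB and 2487 in BBA. In Tcm it called 822, 363 and 938, and in Tem 369, 461 and 1648. The median log2 fold change of the higher calls in Tnv was 1.1 in AAB, 0.66 in WT and 1.2 in BBA. In Tcm it was 0.848, 0.748 and 0.696, and over all tested genes the WT and BBA medians were within 0.03 of 0 in each state. Since the genes were chosen by their AAB values, the AAB medians are not comparable with the others and are given as a description.

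The difference between AAB and WT responses was tested for each gene. Over the mean of the 3 states 209 of 11294 genes differed (1.85%), and 306 with the replicate block. The log2 fold change was higher in AAB for 59 (0.522%) and lower for 150 (1.33%). In Tnv 48 differed (0.425%; 142 with the block), 7 higher in AAB (0.062%) and 41 lower (0.363%). In Tcm 66 differed (0.584%; 219 with the block), 9 higher (0.0797%) and 57 lower (0.505%). In Tem 2 differed, both lower (0.0177%; 25 with the block). With filterByExpr as the filter, which keeps more genes of low count, 2 differed in Tnv, 7 in Tcm and 0 in Tem. In WT Tnv with IL-15, replicate 2 had a sum of CD4 T cell markers of 588 CPM (the other library of that group 41.9 CPM), and replicate 2 of WT Tem with IL-15 held vomeronasal genes at 373 CPM (the other library of that group 46.2 CPM). Without both, an alternative chosen after seeing the data, 297 genes differed over the mean of the states, 68 in Tnv, 77 in Tcm and 8 in Tem. The counts in single states rested on single libraries. In Tnv the count was 5 to 18 without any 1 AAB Tnv library or replicate 1 or 2 of WT Tnv without cytokine, 28 without replicate 2 of WT Tcm with IL-15 and 83 without replicate 1 of WT Tnv with IL-15. In Tcm it was 9 to 38 without any 1 WT Tcm library, replicate 1 or 2 of AAB Tcm without cytokine or replicate 1 of AAB Tcm with IL-15. In Tem the 2 genes were Pkp4 and 2810474O19Rik, and the count was 0 or 1 without any 1 of 27 libraries, all but 1 of the AAB and WT Tem libraries among them. The count over the mean of the states was 176 to 259 without any 1 library.

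Several genes were higher with IL-15 in both WT libraries of a state and were not called higher in AAB. Cdk6, a G1 cyclin-dependent kinase gene, went in WT Tcm from 8.64 and 13.1 to 119 and 106 CPM and in AAB Tcm from 6.24 and 9.63 to 8.77 and 14.9 CPM. In WT Tnv it reached 59.9 and 38.5 CPM with IL-15 and in AAB Tnv 10.2 and 18.9 CPM, and the difference of the responses over the 3 states was -2.09 ± 0.28 (SE; adjusted p = 7.55e-05). Setbp1, a SET-binding protein gene, went in WT Tcm from 9.75 and 15.9 to 108 and 103 CPM and in AAB Tcm from 21.6 and 15.6 to 25.1 and 26.5 CPM, a difference over the states of -1.82 ± 0.30 (SE; adjusted p = 0.000553). Slc30a4, a zinc transporter gene, went in WT Tnv from 19.9 and 18.1 to 102 and 67.2 CPM and in AAB Tnv from 14.1 and 16.02 to 17.9 and 20.5 CPM (-1.71 ± 0.22, adjusted p = 4.16e-05). Lta, whose promoter motifs were given beside those of Cish, went in WT Tcm from 14.7 and 11.8 to 64.2 and 52.9 CPM, and in AAB Tcm from 14.7 and 14.1 to 10.7 and 13.1 CPM (-1.68 ± 0.16, adjusted p = 1.79e-06). In none of these 4 did the AAB and WT libraries with IL-15 overlap in Tcm. BBA Tcm had Cdk6 at 7.90 and 11.5 CPM and Lta at 10.96 and 9.30 CPM with IL-15.

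**Figure D4:**
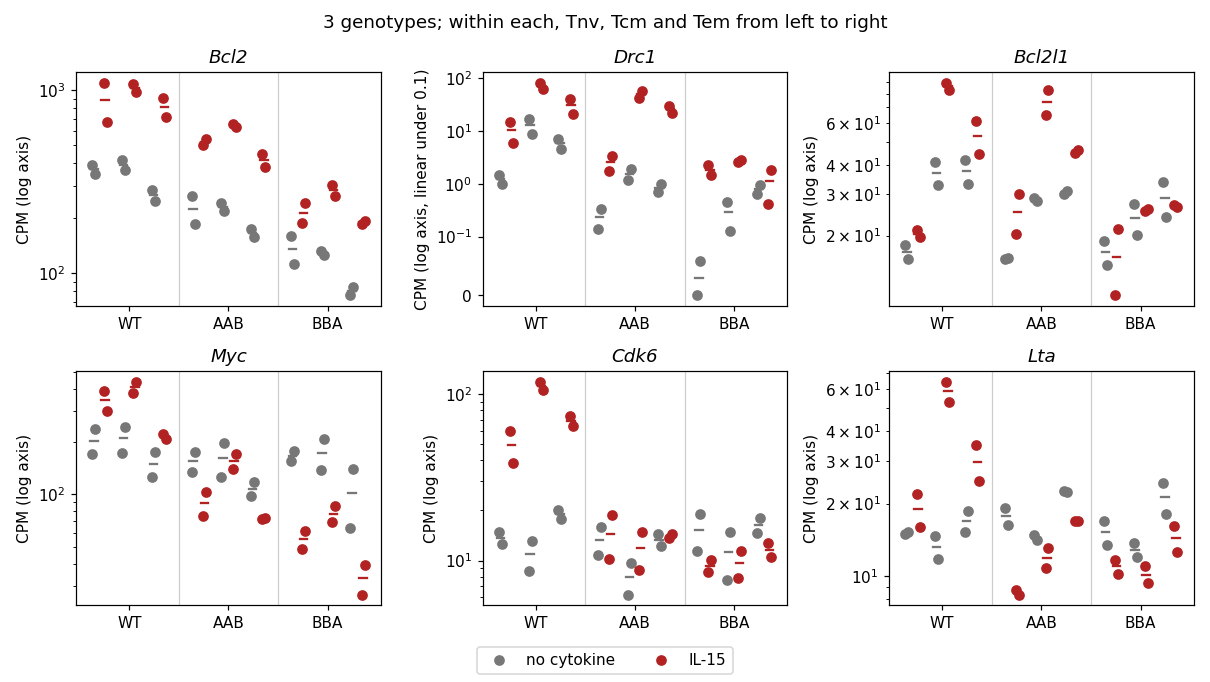
Levels of 6 genes in WT, AAB and BBA libraries (CPM, log axis; for Drc1 linear under 0.1), with Tnv, Tcm and Tem from left to right in each genotype; each point is 1 library, grey without cytokine and red with IL-15, and bars are means of 2. Bcl2 is higher with IL-15 in AAB in each state at levels under WT, and Cdk6 and Lta are raised in WT Tcm and not in AAB Tcm.

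Growth genes were among the other differences. Myc went in WT Tcm from 174 and 244 to 382 and 441 CPM and in AAB Tcm from 125 and 196 to 139.5 and 169.6 CPM, and the responses differed by -1.23 ± 0.25 (SE; adjusted p = 0.00434) over the states. Of 52 genes of ribosome biogenesis 17 had a lower log2 fold change in AAB and 0 a higher one, where 1.33% of all tested genes were lower. The same held for 11 of 27 genes of nucleotide, serine and one-carbon synthesis and 8 of 18 chaperones. Slc7a5 went in WT Tcm from 75.2 and 82.5 to 146 and 151 CPM and in AAB Tcm from 70.6 and 79.1 to 50.4 and 63.9 CPM (-1.23 ± 0.15, adjusted p = 3.51e-05). Hspd1 differed by -1.07 ± 0.14 (SE; adjusted p = 5.76e-05) and Osm by -1.08 ± 0.19 (SE; adjusted p = 0.00113). Fewer genes had a higher log2 fold change in AAB. Dusp6 differed by 1.14 ± 0.27 (SE; adjusted p = 0.0152), as its fall was smaller in AAB. Drc1 differed by 1.79 ± 0.47 (SE; adjusted p = 0.0262), and this call was lost without replicate 1 of WT Tnv, WT Tem, AAB Tnv, AAB Tcm or AAB Tem without cytokine or replicate 2 of AAB Tnv with IL-15 (adjusted p from 0.0524 to 0.0761). Against 0.522% and 1.33% of all tested genes, 2 of 28 STAT5 targets had a higher and 4 a lower response in AAB. Bcl2 and Pim1 were not among them: their differences were -0.09 ± 0.16 (SE; adjusted p = 0.887) and -0.53 ± 0.26 (SE; adjusted p = 0.309), although Bcl2 stood in Tcm with IL-15 at 1085 and 981 CPM in WT and 652 and 634 CPM in AAB.

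Between the mutants, 17 genes differed in their response over the mean of the states (0.151%), and 68 with the replicate block. Of the 17, 13 had a higher log2 fold change in AAB (0.115%) and 4 a lower one (0.0354%). Without replicate 1 of BBA Tem with IL-15 the count was 65, and it was 5 to 11 without replicate 1 of BBA Tnv, BBA Tcm, AAB Tcm or AAB Tem without cytokine, replicate 2 of AAB Tnv, AAB Tcm, AAB Tem or BBA Tem without cytokine, replicate 1 of BBA Tnv or AAB Tem with IL-15, or replicate 2 of AAB Tnv, AAB Tcm, BBA Tcm or AAB Tem with IL-15. Of 30 sterol and fatty acid genes, 5 had a higher response in AAB (Idi1, Fdps, Sqle and Cyp51 among them), where 0.115% of all tested genes did. Idi1 went in BBA Tcm from 17.8 and 12.9 to 22.5 and 19.4 CPM, and in AAB Tcm from 17.4 and 14.5 to 60.1 and 63.6 CPM, a difference over the states of 1.04 ± 0.18 (SE; adjusted p = 0.0098). Fdps differed by 0.75 ± 0.11 (SE; adjusted p = 0.00332), and the calls of Idi1 and Fdps held without any 1 library. Bcl2l1 went in BBA Tcm from 27.4 and 20.03 to 25.4 and 25.9 CPM and in AAB Tcm from 28.98 and 28.1 to 65.2 and 82.6 CPM. Cish, at 6.12 and 4.11 CPM in BBA Tcm and 25.5 and 24.6 CPM in AAB Tcm with IL-15, did not pass the test of the difference (0.72 ± 0.24, adjusted p = 0.27).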

How the data were processed

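RNA-seq libraries of sorted CD8+ T cells were used as gene counts. The authors made the deposited counts from single-end reads of poly(A)+ RNA with TopHat2 and htseq-count; the genome build is given as mm10 in the study's methods and as mm9 in the labels, and use of strand is not given in the sources used here. Groups followed the sample labels. Genes were filtered by a re-implemented Jaccard filter of the HTSFilter type (thresholds of 89.4 and 95.5 normalized counts for the 12 AAB and all 36 libraries). TMM normalization and edgeR 4.0.16 (older quasi-likelihood form, R 4.3.3) gave log2 fold changes with standard errors and Benjamini-Hochberg adjusted p-values. Adjusted p-values in the text are from these fits unless an alternative is named beside them. 3 designs were fitted: 6 group means over 12 AAB libraries (6 residual degrees of freedom), IL-15 with state as covariate (8), and 18 group means over 36 libraries (18), in which differences between genotypes were tested. A call needs an adjusted p under 0.05 and more than 1.5-fold.

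CPM values are counts scaled to the TMM library size of the tested genes in the 36 libraries, and ratios of their means lay within 0.035 (log2) of the fitted fold changes in the median of each state. At these depths 3 counts, the limit that a count of 0 allows, are 0.133 to 0.464 CPM, which covers counting error only. Libraries with the same replicate number deviated together, with correlations of 0.453, 0.58 and 0.684 in AAB Tnv, Tcm and Tem and 0.168 to 0.684 over 9 pairs of 3 genotypes, so the number was taken to pair libraries, and fits with the replicate number as a block are given where they moved a count. Named genes were members of the gene lists, Stat5a and Stat5b, and called genes with the largest fold changes whose mean normalized count was 50 or more and whose libraries did not overlap (up to 12 a direction with state as covariate, 8 in a state and 5 for a difference). The members and lists were chosen with earlier results of these data known. Promoter sequences came from RefSeq (GRCm38.p6). Alternatives were other filters, DESeq2 1.42.0 size factors and its Wald test, the edgeR 4 quasi-likelihood, Bonferroni adjustment, the replicate block, other sets of libraries and each library left out. On simulated counts with known changes over 10409 genes, the Tnv test recovered 74.6% of 2-fold and 90.9% of 4-fold changes, with 4 false calls. The test of AAB minus WT over the mean of the states, on 11294 genes, recovered 68.7% and 86.4%, with 3 false calls. The simulated libraries were drawn independently, without pairing, and fewer genes were changed than were called in the data. Recovery of 1.5-fold changes is not given. These shares therefore describe the simulation only. Some genes that this rule or these lists hold are not reported here. CD4+ T cells and retrovirus-transduced cells were not used here.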

Additional observations from a re-analysis of the deposited data

Results flagged for a closer look

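Several responses differed between states or genotypes by a test of the difference itself. The number of genes with a different log2 fold change was 128 between AAB Tcm and Tnv, 21 between Tem and Tnv, 48, 66 and 2 between AAB and WT in Tnv, Tcm and Tem, 209 between AAB and WT over the mean of the states, and 17 between AAB and BBA.

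Between AAB Tcm and Tnv the log2 fold changes differed by -1.96 for Bbc3, 2.47 for Il12rb1, 1.38 for Prf1, 1.39 for Rrp12, 2.94 for Slc16a5 and 1.60 for Socs1. Between AAB and WT over the mean of the states they differed by -2.09 for Cdk6, 1.79 for Drc1, 1.14 for Dusp6, -1.07 for Hspd1, -1.68 for Lta, -1.23 for Myc, -1.08 for Osm, -1.82 for Setbp1, -1.71 for Slc30a4 and -1.23 for Slc7a5, of which that of Drc1 was lost without any 1 of 6 libraries. Between AAB and BBA they differed by 0.75 for Fdps and 1.04 for Idi1. No cause of these differences was tested.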

How the results depend on the processing

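No value that passed the call changed direction under any alternative run. Values that did not pass it and were close to 0 did: the log2 fold change of Cish in Tnv was -0.054 with filterByExpr, -0.095 with no filter and -0.44 to 0.47 over the fits that left out 1 library, with the lowest without AAB Tnv IL-15 replicate 2. That of Il2rb with state as covariate was -0.032 to 0.13 over such fits, and that of Bcl2 for AAB minus WT -0.19 to 0.047. Apart from fits that left out 1 library, recomputed values of named genes kept their direction and side of the limits 846 times, 38 no longer passed a limit, most of them under Bonferroni adjustment, 2 newly passed (Socs1 in Tnv) and 2 changed direction (Cish in Tnv). The Drc1 difference between AAB and WT lost its call with filterByExpr (1.79 with an adjusted p of 0.061) and with the edgeR 4 form (1.79 with an adjusted p of 0.0861). DESeq2 size factors left all counts of calls within 1.5 times. With filterByExpr in place of the Jaccard filter the counts of calls were 0 for Tem minus Tnv, 1874 with state as covariate, 2 for AAB minus WT in Tnv, 7 for AAB minus WT in Tcm, 0 for AAB minus WT in Tem and 11 for AAB minus BBA. With no filter except on genes at 0 they were 1856 with state as covariate, 1 for AAB minus WT in Tnv, 8 for AAB minus WT in Tcm, 0 for AAB minus WT in Tem and 10 for AAB minus BBA. With the DESeq2 Wald test they were 544 in Tcm, 279 for Tcm minus Tnv, 124 for Tem minus Tnv, 21 for Tem minus Tcm, 128 for AAB minus WT in Tnv, 156 for AAB minus WT in Tcm, 21 for AAB minus WT in Tem and 46 for AAB minus BBA. The edgeR 4 form gave 0 for AAB minus WT in Tem. With the replicate block they were 862 in Tcm, 926 in Tem, 619 for Tcm minus Tnv, 302 for Tem minus Tnv, 23 for Tem minus Tcm, 142 for AAB minus WT in Tnv, 219 for AAB minus WT in Tcm, 25 for AAB minus WT in Tem and 68 for AAB minus BBA. Bonferroni adjustment gave 131 in Tnv, 40 in Tcm, 36 in Tem, 8 for Tcm minus Tnv, 1 for Tem minus Tnv, 208 with state as covariate, 8 for AAB minus WT in Tnv, 9 for AAB minus WT in Tcm, 0 for AAB minus WT in Tem, 60 for AAB minus WT over the states and 3 for AAB minus BBA. With only the 8 WT and AAB libraries of the state they were 4 for AAB minus WT in Tnv, 4 for AAB minus WT in Tcm and 0 for AAB minus WT in Tem. With only the 4 AAB libraries of the state they were 210 in Tcm and 94 in Tem. With both WT libraries that stand apart left out they were 8 for AAB minus WT in Tem. Leaving out 1 library at a time, the counts were 929 to 1615 in Tnv, 128 to 426 in Tcm, 203 to 691 in Tem, 21 to 147 for Tcm minus Tnv, 0 to 7 for Tem minus Tnv, 0 to 0 for Tem minus Tcm, 923 to 1240 with state as covariate, 5 to 83 for AAB minus WT in Tnv, 9 to 91 for AAB minus WT in Tcm, 0 to 3 for AAB minus WT in Tem, 176 to 259 for AAB minus WT over the states and 5 to 65 for AAB minus BBA. The cause of these moves was not tested, except that fits of fewer libraries have fewer degrees of freedom. The block changed the count with state as covariate and that for AAB minus WT over the mean of the states by less than 1.5 times. With 2 libraries a group, counts of calls in single states and of differences depend on each library more than values with state as covariate do. Depth limits low genes: levels near 1 CPM rest on few counts, and the Drc1 values over the 3 states include Tnv libraries near the limit of 3 counts without cytokine, so they depend on how the fit treats counts near 0.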

Other observations

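AAB libraries with IL-7, made for Tnv and Tcm only and not part of the comparisons, share the libraries without cytokine with IL-15, so the levels of both cytokines are given side by side, in CPM of a scale over 48 libraries, with no test. Bcl2 was at 264 and 188 CPM without cytokine, 1250.0 and 1400.0 CPM with IL-7 and 502 and 545 CPM with IL-15 in Tnv, and at 246 and 218, 947 and 1010.0 and 659 and 639 CPM in Tcm. Both IL-7 libraries lay above both IL-15 libraries in each state. Myc was at 134 and 176, 341 and 275 and 75.1 and 104 CPM in Tnv and at 127 and 195, 274 and 209 and 141 and 171 CPM in Tcm. In Tnv the IL-7 libraries lay above those without cytokine and the IL-15 libraries below them.

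Pim1 was at 424 and 362 CPM with IL-7 and 178 and 185 CPM with IL-15 in Tnv, and at 335 and 362 and 146 and 149 CPM in Tcm. Cish was at 16.3 and 18.6 CPM with IL-7 and 6.98 and 13.1 CPM with IL-15 in Tnv. In Tcm the order of the cytokines for Cish was the other way round, with 5.50 and 5.16 CPM with IL-7 and 25.8 and 24.8 CPM with IL-15. Drc1 was at 48.5 and 12.1 CPM with IL-7 and 1.74 and 3.39 CPM with IL-15 in Tnv, and at 44.3 and 70.1 and 41.8 and 56 CPM in Tcm, where the libraries of both cytokines overlapped.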
